A study of Homo sapiens with 6 samples.

Results

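The desmosome and plakophilin genes were followed in WM266.4, an established human melanoma cell line, after silencing of RIPK4. They were taken by name: a gene belonged to the set when its symbol was on a fixed list of desmosomal cadherins, plakoglobin, desmoplakin, plakophilins and PERP. DSG1 and DSG3, also desmosomal cadherins in the count table, were not among these names and are read apart below. Of 10 such names, 8 were analysed out of 24526 genes in the table, namely DSG2, DSC3, DSP, JUP, PKP1, PKP3, PKP4 and PERP. The other two were not analysed here. The labels give 3 cultures that received a negative control siRNA (neg.si in the study, control.si in the labels) and 3 cultures that received siRNA against RIPK4 (RIPK4.si), numbered 1 to 3 in each group. By the study's text they are biological replicates, and RNA was taken 48 h after transfection. These siRNAs are small RNA duplexes that cause matching transcripts to be cut and lost. A single RIPK4 siRNA was used, both groups went through transfection, and all libraries came from the same cell line.

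Desmosomes are button-like junctions that tie the intermediate filaments of neighbouring cells together. Desmogleins (DSG) and desmocollins (DSC) are their calcium-dependent adhesion receptors, and plakoglobin (JUP) and the plakophilins (PKP) are armadillo-repeat proteins bound to the tails of these cadherins. Desmoplakin (DSP) links that plaque to the filaments. Desmosomes are abundant in epidermis and heart, whereas melanocytes attach to keratinocytes mainly through classical cadherins of adherens junctions. RIPK4 is a kinase needed for epidermal differentiation, and PKP1 is known as one of its substrates in keratinocytes.

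None of the desmosome genes passed the test between the groups. Of the 8 genes, 6 passed the filter on low counts, and 0 of these 6 had an adjusted p-value under 0.05 in edgeR's quasi-likelihood test, against 0.767% of all 16297 genes tested. No member had an unadjusted p-value under 0.05 either (10.8% of all genes did), and DESeq2 also called 0 of them, against 2.78% of its genes. The levels of the groups overlapped in every tested member, while 17.6% of all genes tested had groups that did not overlap. The median log2 fold change of the 6 was 0.03, beside -0.02 over all genes tested. In bulk RNA, a lower level in each cell and fewer cells that express a gene cannot be told apart. What the libraries did show was a steep order of levels among the members. PERP, PKP4 and DSG2 were well expressed, PKP3 and DSP were low, and DSC3 and PKP1 were near the limit of detection. Among the 3 well expressed members, DSG2 varied the most between libraries of the same group.

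RIPK4 itself, on chromosome 21, was read first as a check of the silencing. Its level was 85.8, 76.5 and 54.7 CPM in neg.si replicates 1, 2 and 3, and 19.9, 16.7 and 21.5 CPM in RIPK4.si replicates 1, 2 and 3, with no overlap. The log2 fold change was -1.90 (adjusted p = 0.0102), but RIPK4 no longer passed the threshold when neg.si replicate 2 (adjusted p = 0.106) or RIPK4.si replicate 1 (0.0940), 2 (0.0622) or 3 (0.0725) was left out. The log2 fold change in these 4 fits stayed between -1.98 and -1.79. CPM (counts per unit of library size, normalized by TMM) are not scaled to the length of the transcript. Means are given ± SD with n = 3 libraries in each group, and adjusted p-values are those of edgeR unless another tool is named. The libraries held between 28464057 and 31688095 counts on genes. At this depth 3 counts correspond to between 0.0944 and 0.104 CPM, which was taken as the limit that a count of 0 allows. With this design, 3 libraries against 3 cannot give an exact permutation p-value under 0.1.

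The libraries carried the markers of the melanocyte lineage, such as MITF, SOX10, TYR and DCT, whose lowest count in any library was 9001. Of the other listed markers, S100B had at least 13841 counts in a library and PMEL at least 3013. TYRP1 had between 836 and 1225 counts and MLANA between 338 and 423. Among keratinocyte markers, KRT5 and KRT14 were at 0 in 4 of the 6 libraries, neg.si replicates 2 and 3 and RIPK4.si replicates 2 and 3. KRT5 had 19 counts in neg.si replicate 1 and 6 in RIPK4.si replicate 1, and KRT14 had 5 and 5 in the same libraries. The summed level of the 7 measured keratinocyte markers of 9 listed lay between 17.0 and 18.5 CPM in neg.si and between 16.7 and 19.97 CPM in RIPK4.si, most of it from KRT10 and FLG. FLG (filaggrin, named after its values were seen, and with an antisense gene, FLG-AS1, whose reads cannot be told apart from it without strand) had 5.91, 6.79 and 6.14 CPM in neg.si and 3.89, 3.01 and 3.92 CPM in RIPK4.si (log2 fold change -0.80, adjusted p = 0.130), and KRT10 had 10.5 ± 0.347 and 13.9 ± 2.13 CPM (log2 fold change 0.41, adjusted p = 0.438). In both the groups did not overlap (17.6% of all genes), edgeR called 0 (0.767% of all genes) and DESeq2 1 (2.78% of all genes) of the 3 tested keratinocyte markers, and their part in the results on desmosome genes was not tested. Simple epithelial markers were mostly low, with EPCAM at 7 counts or fewer and CDH1, which encodes E-cadherin, at 14 counts or fewer, although KRT18 and ESRP1 were present. In their sum, the 6 measured epithelial markers of 7 listed lay between 41.6 and 43.8 CPM in neg.si and between 44.2 and 50.3 CPM in RIPK4.si.

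Of the desmosomal cadherins, DSG2 and DSC3 were analysed as members. DSG2 (chr18:31498177-31549008 of GRCh38, plus strand), the desmoglein of simple epithelia and heart, had 30.1, 48.02 and 74.3 CPM in neg.si replicates 1, 2 and 3. In RIPK4.si replicates 1, 2 and 3 it had 74.9, 29.3 and 65.9 CPM. The highest library was 2.47 times the lowest within neg.si and 2.56 times the lowest within RIPK4.si, and neg.si replicate 1 and RIPK4.si replicate 2 shared the low level and neg.si replicate 3 and RIPK4.si replicate 1 the high one. The group means were 50.8 ± 22.2 CPM and 56.7 ± 24.2 CPM. The log2 fold change of 0.16 (adjusted p = 0.955, standard error 0.382) had a 95% confidence interval from -0.70 to 1.02, a fold between 0.615 and 2.02. Its sign turned, to -0.092 and -0.084, when neg.si replicate 1 or RIPK4.si replicate 1 was left out. DSG2 overlaps DSG2-AS1 on the opposite strand, and the reads were counted without regard to strand.

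DSC3 (chr18:30989365-31042815, minus strand) is a desmocollin of stratified epithelia. Its counts were 5, 0 and 0 across neg.si replicates 1, 2 and 3, and 4, 1 and 0 across RIPK4.si replicates 1, 2 and 3. It did not pass the filter, and no difference was detectable at this depth. Pooled over a group, the 5 counts of neg.si amount to 0.0539 CPM (95% Poisson interval 0.0175 to 0.126) and the 5 counts of RIPK4.si to 0.0560 CPM (0.0182 to 0.131), intervals that cover counting error only. The counts stood in the replicate 1 libraries of both groups apart from a single count, as did those of KRT5 and KRT14. The desmogleins of stratified epithelium were as rare. DSG1 had 3, 0 and 0 counts in neg.si and 4, 0 and 1 in RIPK4.si, and DSG3 had at most 4 counts in any library. Any part of keratinocyte RNA in these few counts was not tested.

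**Figure D1:**
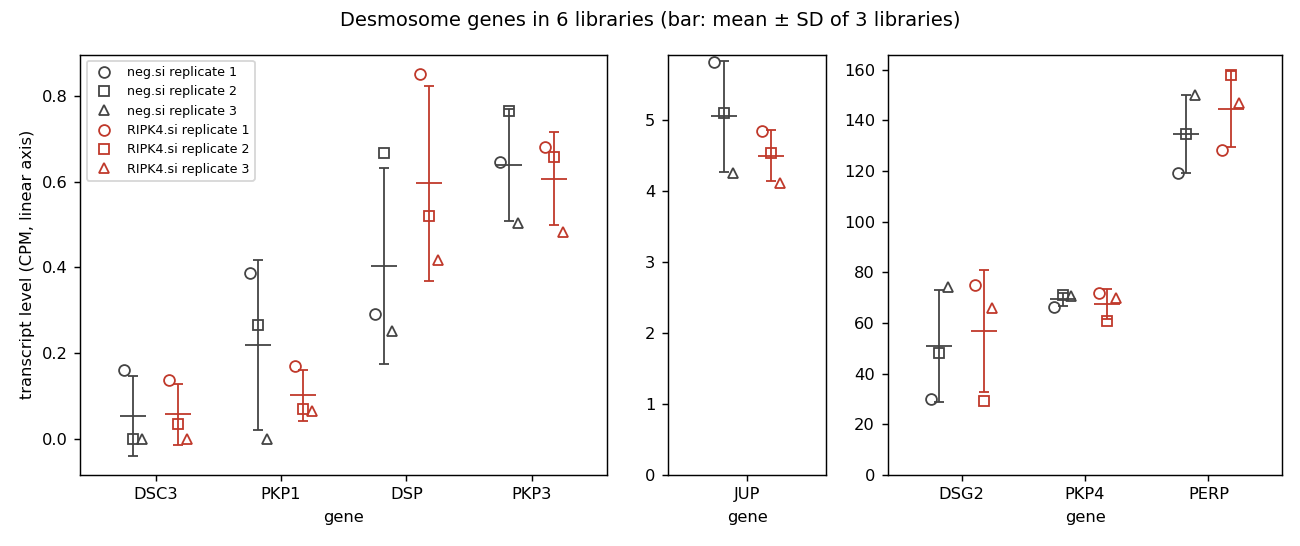
Transcript level in CPM (linear axes that differ between the 3 panels) of the 8 desmosome genes, with a symbol for each library, neg.si in grey and RIPK4.si in red, and a bar for the mean ± SD of 3 libraries. The groups overlap for every gene, DSG2 spreads from 29.3 to 74.9 CPM, and PKP4 keeps between 60.6 and 71.6 CPM.

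Of the plaque proteins, plakoglobin was at a middling level. JUP (chr17:41754604-41786931, minus strand), which also occurs in adherens junctions and is a close relative of beta-catenin, had 5.81, 5.09 and 4.25 CPM in neg.si and 4.84, 4.53 and 4.12 CPM in RIPK4.si replicates 1, 2 and 3. Its log2 fold change was -0.17 (adjusted p = 0.882, standard error 0.203), with a 95% interval from -0.63 to 0.29, and it ran from -0.28 to -0.039 with a library left out. All 3 RIPK4.si libraries lay within or under the range of neg.si, and the groups overlapped.

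DSP (chr6:7541617-7586714, plus strand), the plakin that anchors the filaments, was low but above the limit of detection. Its counts were 9, 20 and 8 in the neg.si libraries and 25, 15 and 13 in those of RIPK4.si, or 0.291, 0.666 and 0.252 CPM against 0.852, 0.519 and 0.418 CPM. The largest log2 fold change among the tested members was that of DSP, 0.56, and it was also the least precise, with a standard error of 0.495, an interval from -0.55 to 1.68 and an adjusted p of 0.810 from edgeR. The interval covers folds from 0.683 to 3.20. With a library left out it ran from 0.23 (without RIPK4.si replicate 1) to 1.14 (without neg.si replicate 2). Omitting neg.si replicate 3 gave 0.32, under the 0.54 of DSG2. DSP overlaps DSP-AS1 on the opposite strand.

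The plakophilins differed from each other by far more than the groups did. PKP4 (chr2:158456964-158682879, plus strand), which by sequence and binding partners stands close to the p120-catenin proteins of adherens junctions, had 66.4, 70.9 and 70.7 CPM in neg.si and 71.6, 60.6 and 69.9 CPM in RIPK4.si. It was the most even member, with a highest library only 1.18 times the lowest, a smaller span than in all but 3.88% of the 9206 genes with a mean of at least 10 CPM. The log2 fold change was -0.04 (adjusted p = 0.972, standard error 0.141), and its 95% interval, from -0.36 to 0.28, leaves room for folds between 0.780 and 1.21. Leaving out RIPK4.si replicate 2 turned its sign, to 0.039. The antisense gene PKP4-AS1 and a pseudogene lie within or across PKP4.

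PKP3 (chr11:392614-404908, plus strand), the plakophilin found in most epithelial layers, had 0.646, 0.766 and 0.504 CPM in neg.si and 0.682, 0.658 and 0.482 CPM in RIPK4.si, from 15 to 23 counts per library. Its log2 fold change of -0.07 (adjusted p = 0.980, standard error 0.356) had an interval from -0.87 to 0.73, and it became positive, 0.092 and 0.078, without neg.si replicate 2 or RIPK4.si replicate 3. PKP1 (chr1:201283452-201332993, plus strand), the RIPK4 substrate of keratinocytes and a plakophilin of the upper epidermis, was read 12, 8 and 0 times across neg.si replicates 1, 2 and 3, and 5, 2 and 2 times across RIPK4.si. The 20 counts of neg.si pooled to 0.216 CPM (95% Poisson interval 0.132 to 0.333) and the 9 counts of RIPK4.si to 0.101 CPM (0.0461 to 0.191). The neg.si libraries alone ran from 0 to 12 counts, so the groups overlapped, and PKP1 was too low for the test. In RPKM, that is, CPM divided by the length of exon in kilobases, PKP4 supplied 97.3 ± 0.839% of the transcripts of the 3 measured plakophilins in neg.si and 97.6 ± 0.531% in RIPK4.si.

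PERP (chr6:138088505-138107419, minus strand), a tetraspan membrane protein of desmosomes that is also a target of p53 and p63, was the highest member. It had 119.2, 134.5 and 150.1 CPM in neg.si and 128.4, 158.0 and 146.9 CPM in RIPK4.si replicates 1, 2 and 3. The log2 fold change of 0.10 (adjusted p = 0.916, standard error 0.155) had an interval from -0.25 to 0.45 and ran from 0.040 to 0.19 with a library left out, and the groups overlapped.

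Set against transcript length, the order of the members by their mean over both groups was the same with the union of exons, used below, or the longest transcript as the length. PERP had 32.1 ± 3.68 RPKM in neg.si, above 95.7% of the genes in the table by its mean over both groups. PKP4 followed with 7.27 ± 0.268 RPKM and DSG2 with 5.35 ± 2.34 RPKM, and these neighbours were not separated, since the neg.si libraries of DSG2 ran from 3.17 to 7.83 RPKM. JUP had 1.02 ± 0.158 RPKM, close to the middle of the table (above 53.1% of genes). PKP3 had 0.168 ± 0.0346 RPKM, and PKP1 (0.0351 ± 0.0319 RPKM) and DSP (0.0296 ± 0.0168 RPKM) overlapped in neg.si. By the mean over both groups DSP stood above PKP1, as it did in neg.si with the longest transcript as length (0.0415 against 0.0400 RPKM). That length moved PKP4 to 12.0 and DSG2 to 8.92 RPKM in neg.si. DSC3 stood last with 0.00699 ± 0.0121 RPKM, above 1.27% of genes.

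CDH2, CTNNB1, CTNND1 and PLEC, which encode counterparts of these proteins in adherens junctions or in linking filaments, were expressed at higher levels than DSG2, JUP, PKP4 and DSP. DSG2 amounted to 13.8%, 20.01% and 31.4% of the RPKM of CDH2, the N-cadherin gene, in neg.si replicates 1, 2 and 3 and to 34.4%, 12.5% and 28.4% in RIPK4.si. JUP reached 2.99 ± 1.08% of the level of CTNNB1 (beta-catenin) in neg.si and 2.56 ± 0.329% in RIPK4.si, and with the longest transcript as length 1.75% and 1.498%, a choice of length added after seeing the data. For PKP4 and CTNND1 (p120-catenin), the ratio was 39.6 ± 1.16% and 40.0 ± 6.25%. DSP was at 0.133 ± 0.0694% of PLEC, which encodes plectin, another plakin, in neg.si and at 0.162 ± 0.0883% in RIPK4.si. Plectin had 22.8 ± 6.76 RPKM in neg.si, and CDH1 only 0.0466 ± 0.0366 RPKM. For none of the 6 ratios computed was a difference between the groups detected (two-sided exact permutation test, p between 0.6 and 1.0, and between 0.96 and 1.0 after Benjamini-Hochberg adjustment, where 0.1 is the smallest that 3 libraries against 3 allow).

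**Figure D2:**
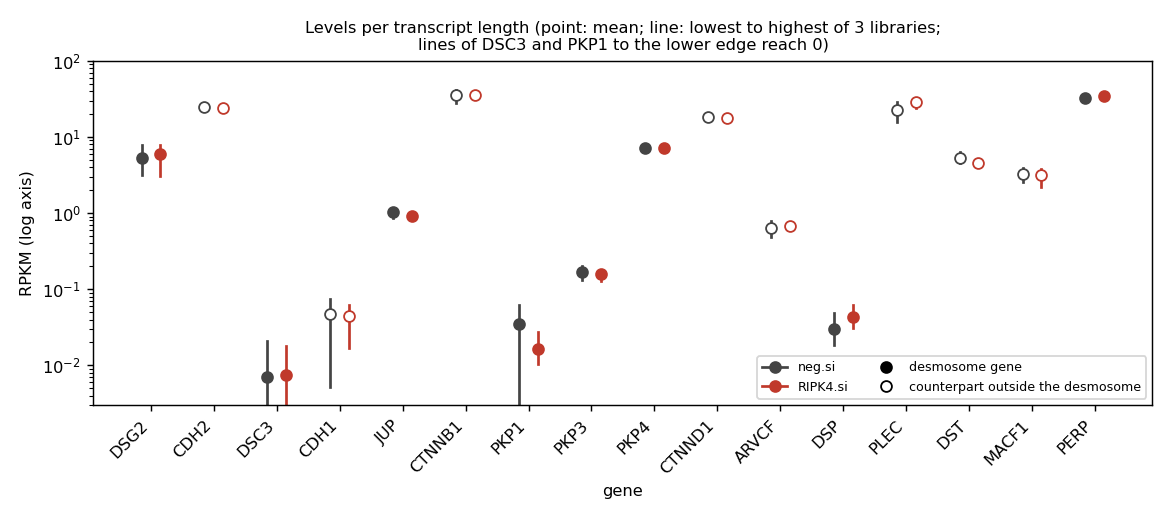
Levels in RPKM on a log axis of the 8 desmosome genes (filled) and of genes with a related role in adherens junctions or in linking filaments (open), with the mean as a point and the lowest to highest of 3 libraries as a line, neg.si in grey and RIPK4.si in red. CDH2, CTNNB1, CTNND1 and PLEC lie above DSG2, JUP, PKP4 and DSP, and DSC3 and PKP1 have libraries at 0, drawn to the lower edge.

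The spread of DSG2 was set beside a property of the libraries. Across genes, the deviation of a library from the mean of all libraries followed the GC content of the transcript with a rank correlation of 0.555 in neg.si replicate 1 and -0.547 in neg.si replicate 3, and between -0.0788 and 0.165 in the others (genes are not independent replicates). DSG2 has a GC content of 41.2%. On the log2 CPM scale it deviated by -0.73, -0.06 and 0.57 in neg.si replicates 1, 2 and 3, whereas the 872 genes within 1 percentage point of its GC content and with a mean of at least 10 CPM had median deviations of -0.18, 0.01 and 0.21. In RIPK4.si replicates 1, 2 and 3 DSG2 deviated by 0.58, -0.77 and 0.40, against medians of -0.02, -0.02 and 0.02. Its SD over the 6 libraries was 0.63, and 98.4% of these genes had a smaller one. DSG2 was taken up here because its spread had been seen, and the part of GC content in that spread was not tested. PERP, at a GC content of 40.4%, had an SD of 0.15, and 19.7% of its own 879 genes of like GC had a smaller one. With the GC trend of each library removed, the log2 fold change of DSG2 was 0.22 (95% interval -0.48 to 0.92, adjusted p = 0.824 from edgeR), and 0 members were called where 3.28% of all genes were.

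**Figure D3:**
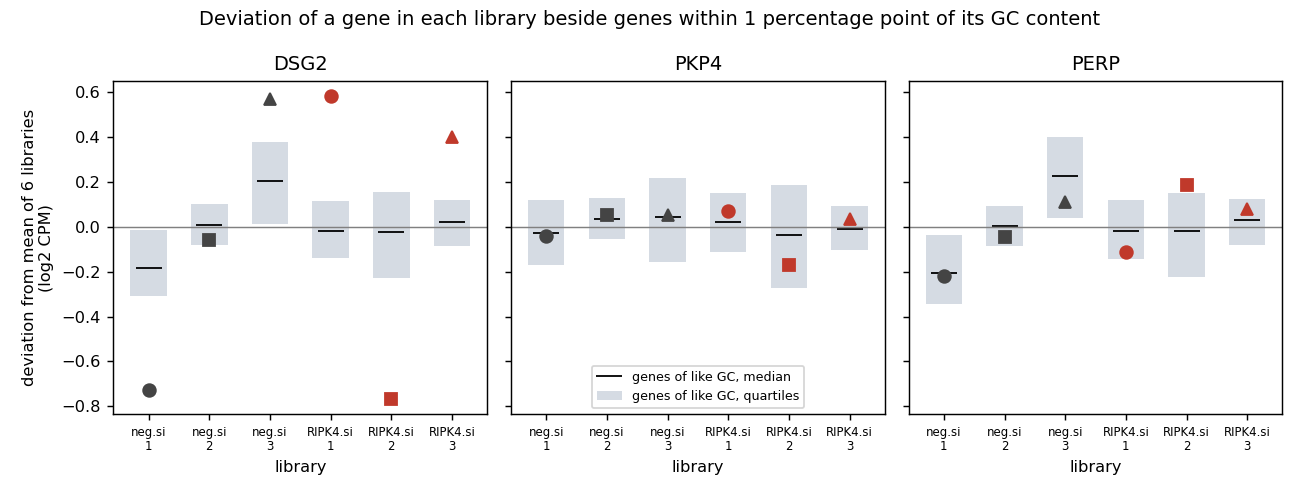
Deviation of DSG2, PKP4 and PERP from their mean over the 6 libraries (symbols, log2 CPM, neg.si in grey and RIPK4.si in red), with the median (line) and quartiles (box) of genes within 1 percentage point of the same GC content. DSG2 lies outside the quartiles in neg.si replicates 1 and 3 and in all RIPK4.si libraries, while PKP4 lies inside them in every library.

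The genes whose log2(CPM + 0.1) followed DSG2 most closely over the 6 libraries, among 9206 genes with a mean of at least 10 CPM, were USP28, ZNF234 and ZNF217, a comparison chosen after the values of DSG2 were seen. Pearson's r was 0.998 for USP28 and 0.997 for ZNF234 and ZNF217, over 6 points that share library depth and base composition. The highest library was 1.85 times the lowest in USP28, 1.86 times in ZNF234 and 1.55 times in ZNF217, less than the 2.56 times of DSG2, and their GC contents lay between 43.1% and 43.8%. Over the same genes the median span was 1.59 times, and 94.1% had a smaller span than DSG2.

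**Figure D4:**
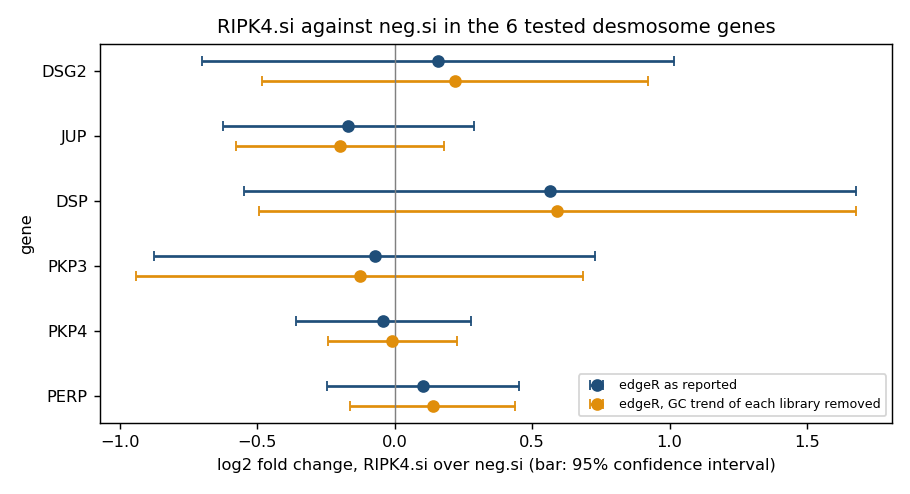
Log2 fold change of RIPK4.si over neg.si with its 95% confidence interval in the 6 tested desmosome genes, with edgeR as reported (blue) and with the GC trend of each library removed (orange). Every interval includes 0, PKP4 has the narrowest and DSP the widest.

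The transcripts of members were also read for a short sequence, ACAGCTT, that had been noticed on these same libraries as more frequent in the 3' UTR of genes with lower levels in RIPK4.si, so the matches below are a description. It was sought on the transcript strand of the longest annotated 3' UTR and is present in 16.0% of the tested genes that have one. The median log2 fold change was -0.10 in these 2068 genes and -0.00063 in the 10895 others. Among the 6 tested members it was found in JUP and PKP4, whose log2 fold changes were -0.17 and -0.04, and of the untested members in DSC3. In the list of genes for desmosome assembly and turnover described further on, 3 of 14 hold it. These are GSK3B, ADAM10 and KIF5B, with log2 fold changes of -0.36, -0.76 and -0.19, and ADAM10, the lowest of them, is shown for comparison. Of the other genes named below, it is also in COL17A1 and JAM3, with log2 fold changes of 0.56 and 0.16, in GJC1 with -0.61, in GJB1 with -0.39, in VIM with -0.23 and in CTNNA1 with -0.15. Each site is given on the transcript strand, with ACAGCTT in capitals, and the positions are those of the capitals on GRCh38:
JUP, chr17:41754856-41754862, minus strand: gagctctggggACAGCTTcctcacacccct
PKP4, chr2:158681512-158681518, plus strand: gcatgttggaaACAGCTTaaatatatccaa
DSC3, chr18:30990857-30990863, minus strand: tattttgaagcACAGCTTtacagatgagta
ADAM10, chr15:58595954-58595960, minus strand: tttttcaaaatACAGCTTtttgtacatgat

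Genes of the structures around the desmosome were read from 6 lists written from general knowledge. Of their 57 tested genes, 0 had an adjusted p-value under 0.05 with edgeR (0.767% of all genes did) and 9 had an unadjusted p-value under 0.05 (10.8% of all genes), while DESeq2 called 2 (2.78% of all genes). Over all genes tested the median log2 fold change was -0.02. In the order of the lists below, the groups did not overlap in 1 of 2, 2 of 11, 1 of 9, 1 of 9, 4 of 14 and 2 of 12 tested genes. Over all genes tested this share was 17.6%.

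Among the other desmosome genes, KAZN encodes kazrin, a plaque protein that binds periplakin. It had 8.72, 8.02 and 7.62 CPM in neg.si and 12.1, 12.9 and 12.99 CPM in RIPK4.si, so that the groups did not overlap. Its log2 fold change was 0.64 (adjusted p = 0.137, standard error 0.164), and DESeq2 gave an adjusted p of 0.0446. CDSN, the corneodesmosin gene, had 0.385 ± 0.185 CPM in neg.si and 0.359 ± 0.0496 CPM in RIPK4.si. The list had 2 genes that passed the filter out of 4 measured.

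In the adherens junction list, 5 of the 11 tested genes had a positive and 6 a negative log2 fold change, with a median of -0.0045 and 0 calls. VCL (vinculin, an actin linker) had the smallest p-value, at 120.1 ± 3.93 CPM with neg.si against 155.3 ± 2.47 CPM with RIPK4.si, or 0.37 as a log2 fold change (adjusted p = 0.317) with no overlap between groups. AFDN, the afadin gene, had a log2 fold change of 0.33 (adjusted p = 0.572) with overlap. CTNNA1 (alpha-catenin), the most abundant of the list, stood at 479.7 ± 19.3 CPM with neg.si against 433.3 ± 14.1 CPM with RIPK4.si. The log2 fold change was -0.15 (adjusted p = 0.824), and its groups did not overlap either.

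The filaments that desmosomes would hold were mainly vimentin. VIM stood at 5510 ± 323 CPM with neg.si against 4707 ± 602 CPM with RIPK4.si, or -0.23 as a log2 fold change (adjusted p = 0.746), which was -0.14 without RIPK4.si replicate 1. The keratin pair of simple epithelia was present at lower levels, KRT18 at 4.91 ± 1.13 RPKM and KRT8 at 0.434 ± 0.0927 RPKM in neg.si, where VIM had 1065 ± 62.4 RPKM. With the longest transcript as length these were 7.21, 1.04 and 2067 RPKM. KRT10 had a log2 fold change of 0.41 (adjusted p = 0.438). Of the 9 tested genes in this list, 0 were called, and the median log2 fold change was 0.07.

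Plakins other than desmoplakin, and hemidesmosome genes, gave 0 calls among 9 tested and a median of -0.03. COL17A1, a collagen of hemidesmosomes, had 2.49, 2.40 and 3.09 CPM in neg.si and 3.89, 3.84 and 4.05 CPM in RIPK4.si, without overlap and with 0.56 as log2 fold change (adjusted p = 0.343, standard error 0.209). DST (dystonin) had a log2 fold change of -0.25 (adjusted p = 0.702), or -0.097 without neg.si replicate 3, and ITGA6, the integrin alpha-6 gene and the most abundant of the list, one of -0.08 (adjusted p = 0.967), which turned to 0.19 when neg.si replicate 3 was left out and to 0.068 when RIPK4.si replicate 2 was.

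Among 14 tested genes that act in the assembly, trafficking and shedding of desmosomal proteins, CAV1 came closest to the threshold. CAV1, which encodes the caveolar protein caveolin-1, had 342.3, 376.2 and 334.3 CPM in neg.si and 552.6, 749.3 and 616.7 CPM in RIPK4.si, with no overlap. Its log2 fold change of 0.87 (standard error 0.164) had an adjusted p of 0.0540 with edgeR, 0.000544 with DESeq2 and 0.0350 with the GC trend removed. In edgeR the adjusted p was 0.0442 with upper-quartile normalization, 0.0481 with the replicate block, and between 0.0465 and 0.311 with a library left out. ADAM10, a membrane protease that sheds cadherins and desmoglein 2 among them, had 328.6, 389.3 and 567.0 CPM in neg.si and 294.1, 199.8 and 262.3 CPM in RIPK4.si. Its log2 fold change was -0.76 (adjusted p = 0.219, standard error 0.231), and with the GC trend removed the adjusted p was 0.0446. With a library left out the log2 fold change ran from -0.91 (without neg.si replicate 1) to -0.51 (without neg.si replicate 3). The related sheddase ADAM17, named after its values were seen, had a log2 fold change of -0.83 (adjusted p = 0.241). DESeq2 called 1 gene of this list (2.78% of all genes) and the fit with the GC trend removed called 2 (3.28% of all genes), and the median over the list was -0.04.

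The tight and gap junction list had 0 calls among 12 tested genes and a median log2 fold change of -0.15. CGN (cingulin of tight junctions) stood at 1.33 ± 0.383 CPM with neg.si against 0.635 ± 0.120 CPM with RIPK4.si, or -1.06 as a log2 fold change (adjusted p = 0.247, standard error 0.339). GJC1, the connexin 45 gene, had one of -0.61 (adjusted p = 0.335), and in both genes the groups did not overlap. JAM3, the most abundant of the list by the mean over both groups but not in neg.si, where GJB1 (a connexin gene, named after its values were seen) had 157.8 ± 57.3 CPM, had 138.7 ± 3.58 CPM in neg.si and 155.4 ± 13.4 CPM in RIPK4.si (log2 fold change 0.16, adjusted p = 0.800).

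**Figure D5:**
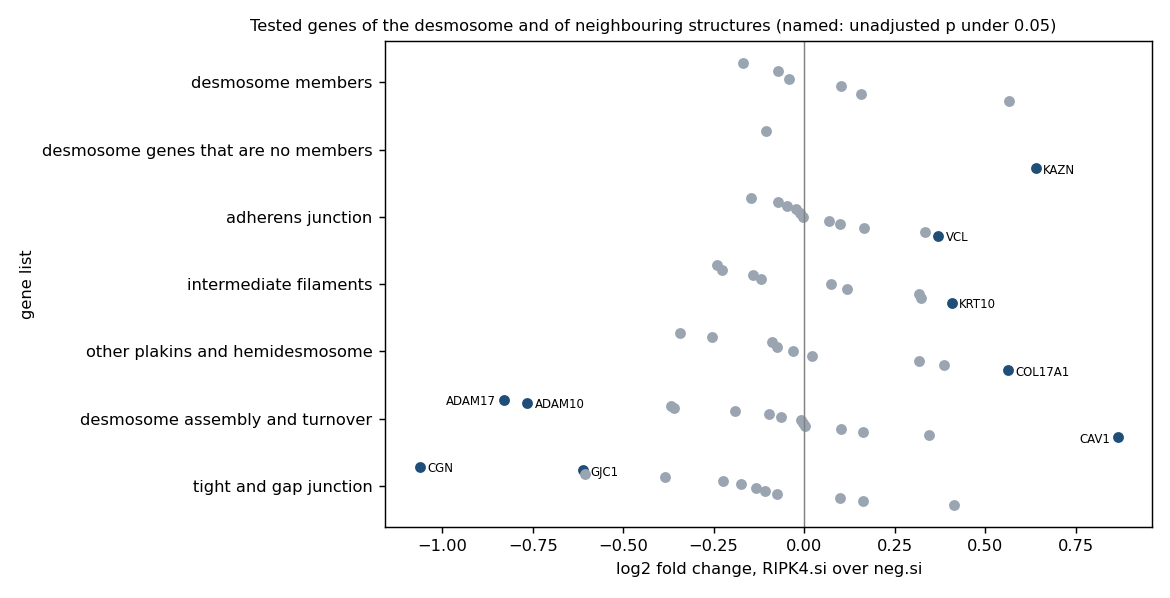
Log2 fold change of RIPK4.si over neg.si of each tested gene in the desmosome set and in the 6 lists around it, with genes of unadjusted p under 0.05 in blue and named. No gene of the desmosome set is among those named, and CAV1 lies farthest to the right at 0.87.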

How the data were processed

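RNA-seq was measured in 6 libraries, 3 neg.si and 3 RIPK4.si, grouped by the sample titles. Reads were paired. Before deposit the authors removed adapters (Cutadapt), mapped to GRCh38.p13 (TopHat) and assigned pairs to genes by HTSeq, ignoring strand. The deposited counts are raw whole numbers, and the lowest gene total over the 6 libraries is 6. The authors also deposited, from DESeq2, normalized signal (counts divided by size factors, and their mean), a fold ratio, its log2 value with a standard error, and p-values, none of which were used here.

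Counts were tested with edgeR 4.0.16 in R 4.3.3 (filterByExpr, TMM, quasi-likelihood test of condition, Benjamini-Hochberg adjustment over 16297 genes). The standard error was the log2 fold change divided by the root of F, and 95% intervals came from the t distribution of the fit. Lengths, GC content (longest transcript) and 3' UTRs came from GENCODE 44 on GRCh38, which matched 24416 of the 24526 genes. Exact permutation tests and figures used Python 3.11.15, scipy 1.17.1 and matplotlib 3.10.9. On simulated data for RIPK4.si against neg.si (15990 genes), edgeR called 63% of genes changed by 1 and 96% of those changed by 2 on the log2 scale. The changed genes were drawn only above a minimum mean count, which DSP and PKP3 do not reach. The simulation held no GC trend and used the typical spread at a gene's level, so these shares do not cover the spread of DSG2.

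The members and lists were chosen with earlier results of these data known. Genes named were the members, RIPK4 and, in each list, called genes, the 2 with the smallest p-values and the most abundant. Other genes given with values (counterparts, KRT8 and KRT18, cell type markers, ADAM17, GSK3B, KIF5B, GJB1 and genes like DSG2) were chosen outside this rule with values known. Alternatives were DESeq2 1.42.0, its size factors, upper-quartile normalization, no filter or at least 10 counts in every library, a replicate block, removal of each library's GC trend (lowess, span 0.3), both together, each library left out, and the longest transcript as length. Depth, between 28464057 and 31688095 counts, limits DSC3, PKP1, DSP and PKP3.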

Additional observations from a re-analysis of the deposited data

How the results depend on the processing

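The count of members called was 0 under all 14 alternatives, which says little for DSP and PKP3, whose counts are low. It says as little for DSG2, whose standard error in the main fit was 0.382, beside 0.356 for PKP3. Without neg.si replicate 2 or RIPK4.si replicate 1, 2 or 3, between 0 and 4 of all genes were called. In those fits, 0 calls say little for any member. Of 83 refitted log2 fold changes of members, 78 kept their sign and 5 changed it, all with a library left out. With each library left out in turn, DSG2 ran from -0.092 (neg.si replicate 1 left out, with -0.084 when RIPK4.si replicate 1 was) to 0.54, PKP3 from -0.21 to 0.092 (neg.si replicate 2 left out, with 0.078 when RIPK4.si replicate 3 was) and PKP4 from -0.077 to 0.039 (without RIPK4.si replicate 2). DSP kept its sign but ran from 0.23 to 1.14. CDSN ran from -0.31 to 0.36 (without neg.si replicate 3), and ITGA6 from -0.24 to 0.19 (neg.si replicate 3 left out, with 0.068 when RIPK4.si replicate 2 was). The cause was not tested. With the longest transcript as length, levels in neg.si moved to 12.0 RPKM for PKP4, 8.92 for DSG2, 1.44 for JUP and 0.227 for PKP3, and, added after seeing the data, the ratio of DSG2 to PERP from 16.3% to 27.1% and that of PKP4 to CTNND1 from 39.6% to 32.4%. Among members, adjusted p-values lay between 0.500 and 0.999. Over all genes the 125 calls became 430 with DESeq2, 532 with the GC trend removed, 442 with that and the replicate block, and between 0 and 295 with a library left out (0 on leaving out neg.si 2, RIPK4.si 1 or RIPK4.si 3, 4 for RIPK4.si 2, 70 for neg.si 1 and 295 for neg.si 3). In the lists, 0 calls became 2 with DESeq2 (KAZN and CAV1), 2 with the GC trend removed, 2 with that and the replicate block, 1 with upper-quartile normalization, and between 0 and 1 with a library left out. The replicate block gave 131 calls over all genes and 1 in the lists. Replicate numbers are shared between groups, but the deviations of same-numbered libraries correlated at -0.242, 0.251 and 0.346 for replicates 1, 2 and 3. The numbers were therefore not taken as a pairing in the main fit. These deviations also hold the GC trend of the libraries, and KRT5, KRT14 and DSC3 had most of their counts in replicate 1 of both groups. Whether the numbers mark shared batches was not tested.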

Other observations

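By the fixed rule on genes with a like pattern, the member with the smallest p-value was DSP. Tested genes with a mean of at least 10 CPM were compared with it by the Pearson correlation of log2 CPM over the 6 libraries. The highest were SSRP1 (r = 0.940), EIF3I (r = 0.933) and GANC (r = 0.917). DSP rests on between 8 and 25 counts per library, so that counting error alone moves these values, and the genes share library depth with it. Fibroblast markers, read as a check on other cells, included COL1A2 with between 14738 and 30486 counts per library, while COL1A1 had 9 counts or fewer and DCN 4 or fewer. The summed level of the 5 fibroblast markers lay between 633.9 and 817.7 CPM in neg.si and between 512.3 and 1041 CPM in RIPK4.si, and that of the 8 melanocyte markers between 3573 and 4012 CPM in neg.si and between 2635 and 2759 CPM in RIPK4.si, a sum to which abundant markers such as TYR, DCT and S100B contribute most. Of the 8, 3 had a positive log2 fold change (up to 0.36, TYRP1) and 5 a negative one, 4 of these with an unadjusted p under 0.05 (10.8% of all genes tested in either direction), and in 3 the groups did not overlap (17.6% of all genes). Of the 8, edgeR called 1 (PMEL, against 0.767% of all genes), DESeq2 3 (against 2.78%) and the fit with the GC trend removed 2 (against 3.28%). The part of this lower sum in the results on desmosome genes was not tested.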
